A study of Mus musculus with 4 samples.

Results

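The 10 genes described here encode the 6 histone H3 lysine 4 (H3K4) methyltransferases of the mammalian COMPASS family and 4 of the proteins that work with them. They were taken by gene symbol, and all 10 were found among the 24391 genes counted. The methyltransferase genes are Kmt2a, Kmt2b, Kmt2c, Kmt2d, Setd1a and Setd1b. Kdm6a encodes a demethylase that joins the complexes of Kmt2c and Kmt2d, and Wdr5, Ash2l and Rbbp5 encode core subunits shared by all of these complexes. RNA was sequenced from mouse lung tumours of 2 genotypes, with 2 samples each. The K-Ras group carried K-Ras LSL-G12D, a mutant K-Ras allele that stays silent until Cre recombinase removes a stop cassette. The K-Ras Mll4-/- group carried the same allele together with floxed Mll4 (Mll4 fl/fl), so both groups share the oncogene and differ, by their labels, in Mll4. The dissected tumours were dissociated with enzymes, erythrocytes were lysed, and leukocytes were removed through their surface antigen CD45 before RNA extraction. The labels give neither the source of Cre, the age or sex of the mice, nor whether the samples of a group came from separate mice. The p-values below therefore measure only the spread between these samples, which may be partly technical.

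COMPASS complexes place methyl groups on lysine 4 of histone H3. Setd1a and Setd1b carry out most of the trimethylation at active promoters, Kmt2a and Kmt2b act at the promoters of developmental genes, and Kmt2c and Kmt2d place the monomethyl mark at enhancers. A module of Wdr5, Rbbp5, Ash2l and Dpy30 binds each of these enzymes and is needed for their full activity. KMT2D and KMT2C are recurrently mutated in human cancers, lung cancer among them. Kmt2d and Kmt2c have overlapping functions, so the levels of the paralogs and shared subunits of the targeted gene were compared between the genotypes. The symbol Mll4 has been used for 2 different genes. RefSeq lists it as a synonym of Kmt2d, and the enhancer enzyme is taken here as the target, but Kmt2b has also gone by that name, so both are given in every sample.

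The paralogs are alike at the end of the protein, where the catalytic SET domain lies, and reads from there could resemble those of another paralog. The last 120 coding bases of the 4 Kmt2 genes, stop codon included, are shown for that reason, from the longest coding sequence of each gene in GENCODE M21 (assembly GRCm38). Capitals in the lower 3 sequences mark bases identical to Kmt2d when the sequences are set end to end without gaps.
Kmt2d: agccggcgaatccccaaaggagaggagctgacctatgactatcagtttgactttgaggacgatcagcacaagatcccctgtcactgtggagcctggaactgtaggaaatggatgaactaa
Kmt2c: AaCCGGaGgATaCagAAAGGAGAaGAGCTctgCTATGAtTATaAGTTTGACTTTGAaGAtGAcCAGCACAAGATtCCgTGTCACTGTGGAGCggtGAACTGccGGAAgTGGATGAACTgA
Kmt2a: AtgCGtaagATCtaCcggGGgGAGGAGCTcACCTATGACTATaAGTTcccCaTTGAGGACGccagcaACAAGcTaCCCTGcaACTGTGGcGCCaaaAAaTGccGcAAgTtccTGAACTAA
Kmt2b: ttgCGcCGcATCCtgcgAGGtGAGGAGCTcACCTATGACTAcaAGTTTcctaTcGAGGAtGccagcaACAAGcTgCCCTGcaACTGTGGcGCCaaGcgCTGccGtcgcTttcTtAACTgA

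In this stretch Kmt2c was identical to Kmt2d at 96 of 120 bases (80%), Kmt2a at 80 (66.7%) and Kmt2b at 75 (62.5%), and the longest unbroken identical run with Kmt2c was 14 bases. Over the whole coding sequences the longest run shared exactly by Kmt2c and Kmt2d was 37 bases of a CAG-rich repeat outside this stretch. It is shown with the run that Kdm6a shares with Uty, its Y-linked copy.
Kmt2c and Kmt2d: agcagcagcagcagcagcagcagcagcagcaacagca
Kdm6a and Uty: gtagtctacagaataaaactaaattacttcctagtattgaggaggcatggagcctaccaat

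None of the 15 pairs of methyltransferase genes shared an exact window of 50 coding bases, whereas 0.284% of such windows of Kdm6a occurred in Uty, all within the 61-base run shown. Reads that aligned to more than 1 place were tallied apart in the deposited counts and assigned to no gene.

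Gene-assigned reads numbered 29096295 and 36677987 in the K-Ras samples and 26683033 and 32887250 in the K-Ras Mll4-/- samples. Reads assigned to no gene made up 65.6% and 64.5% of reads in the K-Ras samples and 60.5% and 60.1% in the K-Ras Mll4-/- samples. Each of the 10 genes had between 1044 and 19004 reads per sample, so counting error alone was at most 3.09% of a value. All 10 passed the count filter and were among the 16001 genes tested. Levels are given as CPM, the reads of a gene per 1000000 gene-assigned reads, with library sizes scaled by the TMM method (a trimmed mean of log ratios). A gene counts as called where edgeR's quasi-likelihood test put its adjusted p under 0.05. Log2 fold changes are K-Ras Mll4-/- minus K-Ras.

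The tissue held more than tumour epithelium, and its makeup differed between samples. Alveolar type 2 markers summed to 13737 to 23491 CPM, and Ptprc, which encodes CD45, remained at 143 to 274 CPM after depletion. Of 5 epithelial markers, 4, namely Krt8, Krt18, Epcam and Cdh1, were higher in both K-Ras Mll4-/- samples than in both K-Ras samples, and the summed level of the list was 2806 and 2860 CPM there against 817 and 1339 CPM. Summed endothelial markers were at 2741 and 2149 CPM against 3618 and 3714 CPM, with 3 of 5 genes lower without overlap. Fibroblast markers summed to 469 and 499 CPM against 1438 and 661 CPM, with 5 of 5 genes lower without overlap. For comparison, 29.9% of all tested genes were higher and 28.5% lower without overlap. Summed leukocyte markers overlapped, at 541 and 307 CPM against 645 and 259 CPM. Of the 6 leukocyte genes, 1 was lower without overlap, namely Itgam, at 17.3 and 13.4 CPM against 63.3 and 26.9 CPM. Alveolar type 1 markers summed to 751 and 648 CPM against 552 and 764 CPM. Of those 5 genes, 2 were higher and 1 lower without overlap. K-Ras replicate 2 stood apart in airway markers. Its ciliated markers summed to 740 CPM and its club cell markers to 3471 CPM, against 74.4 to 130 CPM and 551 to 709 CPM in the other 3 samples. Summed ciliated markers were at 74.4 and 76.3 CPM in the K-Ras Mll4-/- samples against 130 CPM in K-Ras replicate 1. Of 5 ciliated genes, 5 were lower in K-Ras Mll4-/- without overlap, as was 1 of 4 club cell genes. Of 5 red blood cell markers, Hba-a1, Hbb-bs and Hbb-bt were at 0 in all samples, Hba-a2 was at 0 to 0.196 CPM and Alas2 at 7.08 to 31.4 CPM. In bulk RNA, a change in the share of a cell type and a change in RNA per cell cannot be told apart, and the part of cell makeup in the differences below was not tested.

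None of the 10 genes was called between the groups. The adjusted p from edgeR's quasi-likelihood test ranged from 0.222 for Setd1b to 0.916 for Kmt2a, in a comparison that called 6 of 16001 genes (0.0375%). Of the 10, 6 had a negative log2 fold change and 4 a positive one, and the median was -0.05 against -0.01 over all tested genes. Setd1b was the only member with an unadjusted p under 0.05, and it was lower. Among all tested genes 10.4% had such a p and were lower, and 11.4% had such a p and were higher. DESeq2 and the edgeR likelihood ratio test made many more calls, 10.4% of the 15380 genes to which DESeq2 gave an adjusted p and 9.39% of 16001 genes respectively, and neither called a member. The lowest adjusted p of a member was 0.275 in DESeq2 and 0.346 in the likelihood ratio test. The groups of 6 members did not overlap: 4 were lower in both K-Ras Mll4-/- samples than in both K-Ras samples and 2 were higher. Among all tested genes, 28.5% and 29.9% separated in these directions.

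**Figure D1:**
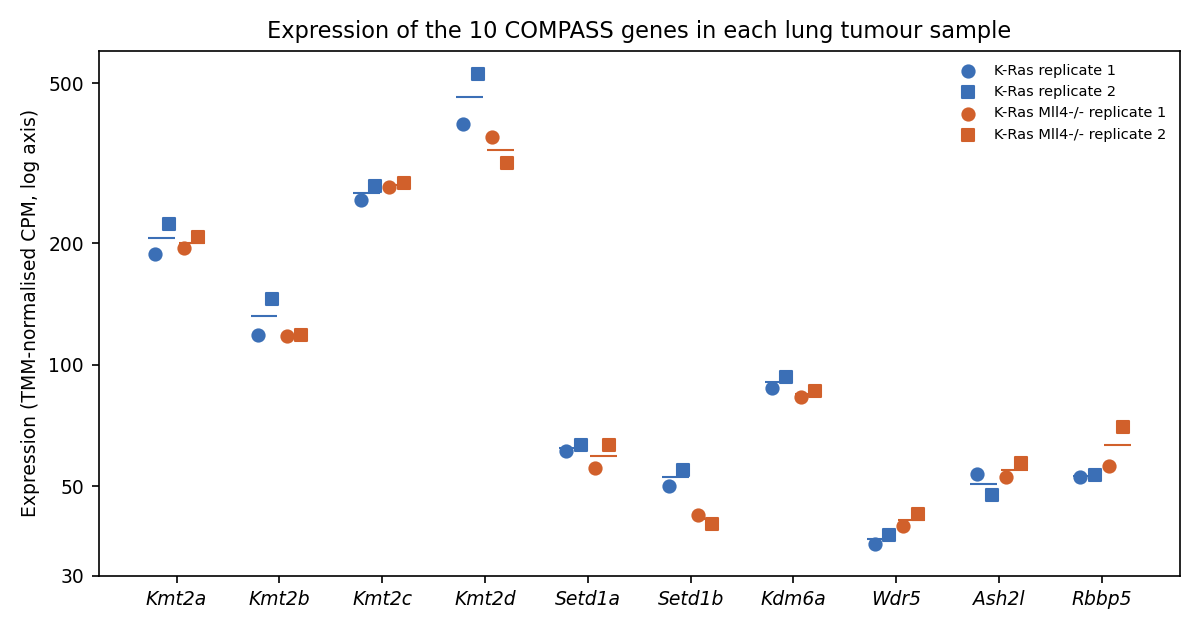
Expression of the 10 COMPASS genes in TMM-normalised CPM on a log axis, with 1 point per sample, blue for K-Ras and orange for K-Ras Mll4-/-, circles for replicate 1 and squares for replicate 2, and short lines at the group means. Kmt2d was at 395 and 526 CPM in K-Ras and 367 and 317 CPM in K-Ras Mll4-/- samples, while the points of Kmt2c lay between 257 and 282 CPM.

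The targeted gene, Kmt2d, was still expressed in the K-Ras Mll4-/- samples. It was at 395 and 526 CPM in the K-Ras samples and at 367 and 317 CPM in the K-Ras Mll4-/- samples, from 9636 to 19004 reads. The groups did not overlap, but the gap between them was 28.4 CPM, less than the difference between the 2 K-Ras samples. Group means were 461 ± 92.2 and 342 ± 35.6 CPM (SD, n = 2 each). The estimated log2 fold change was -0.43 (SE 0.21, 95% interval -0.99 to 0.12, edgeR adjusted p = 0.302), or 0.742 times the K-Ras level. The interval reaches down to 0.505 times the K-Ras level. The highest value came from K-Ras replicate 2. Without that sample the log2 fold change of Kmt2d was -0.22, and without K-Ras replicate 1 it was -0.62. It was -0.54 without K-Ras Mll4-/- replicate 1 and -0.33 without K-Ras Mll4-/- replicate 2. The counts are totals over all exons of a gene, so they do not test whether the floxed exons were missing from the remaining transcript.

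Kmt2c, the closest paralog of Kmt2d and the other enhancer monomethyltransferase, had similar mean levels in the 2 groups. It was at 257 and 278 CPM in K-Ras and at 277 and 282 CPM in K-Ras Mll4-/- samples. The groups overlapped, with K-Ras replicate 2 above K-Ras Mll4-/- replicate 1. Group means were 268 ± 15.2 and 279 ± 3.80 CPM (SD, n = 2 each), and Kmt2c had a log2 fold change of 0.06 with an SE of 0.14 (edgeR adjusted p = 0.822). The 95% interval ran from 0.808 to 1.35 times the K-Ras level, and with the offsets for GC content and transcript length it ran from 0.901 to 1.47 times. Leaving out single samples moved the Kmt2c estimate between 0.01 and 0.11. These intervals are for a single gene and assume the spread estimated by the fit from 2 samples a group and from the other genes.

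Kmt2a, the founding mixed-lineage leukaemia gene, and Kmt2b, its close paralog, form the second pair of enzymes. Kmt2a was at 188 and 223 CPM in K-Ras and at 194.5 and 207 CPM in K-Ras Mll4-/- samples. Both K-Ras Mll4-/- values lay between the K-Ras values, and the log2 fold change was -0.03 (SE 0.15, 95% interval -0.44 to 0.37, edgeR adjusted p = 0.916). Its sign depended on single samples, with -0.15 without K-Ras replicate 1, -0.09 without K-Ras Mll4-/- replicate 2, 0.079 without K-Ras replicate 2 and 0.017 without K-Ras Mll4-/- replicate 1. Kmt2b was at 119 and 146 CPM in K-Ras and at 118 and 119 CPM in K-Ras Mll4-/- samples. K-Ras replicate 2 alone was high, and the gap between the groups was 0.0400 CPM. The log2 fold change of Kmt2b was -0.16 (SE 0.15, 95% interval -0.56 to 0.24, edgeR adjusted p = 0.559), and it was -0.02 without K-Ras replicate 2 and -0.30 without K-Ras replicate 1. As for Kmt2d, the total over all exons does not test for missing exons.

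Setd1a and Setd1b encode the enzymes of the promoter complexes that also hold Cxxc1 and Wdr82. Setd1a was at 61.1 and 63.2 CPM in K-Ras and at 55.5 and 63.1 CPM in K-Ras Mll4-/- samples, with overlapping groups and a log2 fold change of -0.07 (SE 0.13, 95% interval -0.41 to 0.27, edgeR adjusted p = 0.784). The Setd1a value was 0.027 without K-Ras Mll4-/- replicate 1 and -0.17 without K-Ras Mll4-/- replicate 2. Setd1b was at 50.2 and 55.0 CPM in K-Ras and at 42.5 and 40.3 CPM in K-Ras Mll4-/- samples. The groups of Setd1b were apart by 7.69 CPM, more than the difference between samples within either group. Its log2 fold change was -0.34 (SE 0.13, 95% interval -0.68 to -0.01), with an unadjusted p of 0.0453 and an edgeR adjusted p of 0.222. Leaving out single samples moved it between -0.40 and -0.29.

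Kdm6a, the X-linked H3K27 demethylase of the Kmt2c and Kmt2d complexes, was at 87.8 and 93.5 CPM in K-Ras and at 83.4 and 86.3 CPM in K-Ras Mll4-/- samples. The groups were apart by 1.52 CPM, and the log2 fold change was -0.10 (SE 0.12, 95% interval -0.41 to 0.21, edgeR adjusted p = 0.663). It was -0.06 without K-Ras replicate 2, -0.07 without K-Ras Mll4-/- replicate 1, -0.14 without K-Ras replicate 1 and -0.13 without K-Ras Mll4-/- replicate 2. Its Y-linked copy Uty was expressed in all 4 samples, with 57.7 and 57.8 CPM in the K-Ras pair and 62.2 and 69.4 CPM in the other pair, and was not called (log2 fold change 0.19, SE 0.13, edgeR adjusted p = 0.421). Uty gave 0.657 and 0.618 reads per read of Kdm6a in K-Ras and 0.745 and 0.805 in K-Ras Mll4-/- samples.

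The 3 core subunit genes had positive log2 fold changes, none of them called. Wdr5, the WD-repeat protein that holds the enzymes to the core, was at 36.0 and 37.8 CPM in K-Ras and at 39.8 and 42.7 CPM in K-Ras Mll4-/- samples, a log2 fold change of 0.16 (SE 0.13, 95% interval -0.17 to 0.49, edgeR adjusted p = 0.494). Without K-Ras Mll4-/- replicate 2 the Wdr5 value was 0.10, and without K-Ras Mll4-/- replicate 1 it was 0.215. Rbbp5, which with Ash2l activates the catalytic domain, was at 52.6 and 53.5 CPM in K-Ras and at 56.1 and 70.3 CPM in K-Ras Mll4-/- samples. K-Ras Mll4-/- replicate 2 alone was far above the rest, and without it the log2 fold change of Rbbp5 went from 0.25 (SE 0.16, 95% interval -0.16 to 0.66, edgeR adjusted p = 0.392) to 0.07, and without K-Ras Mll4-/- replicate 1 to 0.41. Ash2l was at 53.8 and 47.6 CPM in K-Ras and at 52.7 and 57.2 CPM in K-Ras Mll4-/- samples. Its groups overlapped, with a log2 fold change of 0.12 (SE 0.13, 95% interval -0.24 to 0.47, edgeR adjusted p = 0.638). The Ash2l value was 0.018 without K-Ras replicate 2, 0.048 without K-Ras Mll4-/- replicate 2, 0.21 without K-Ras replicate 1 and 0.18 without K-Ras Mll4-/- replicate 1. Dpy30, the remaining subunit of the core, was at 13.8 and 15.6 CPM in K-Ras and at 17.6 and 19.1 CPM in K-Ras Mll4-/- samples, and it was not called either (log2 fold change 0.32, SE 0.17, edgeR adjusted p = 0.329).

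**Figure D2:**
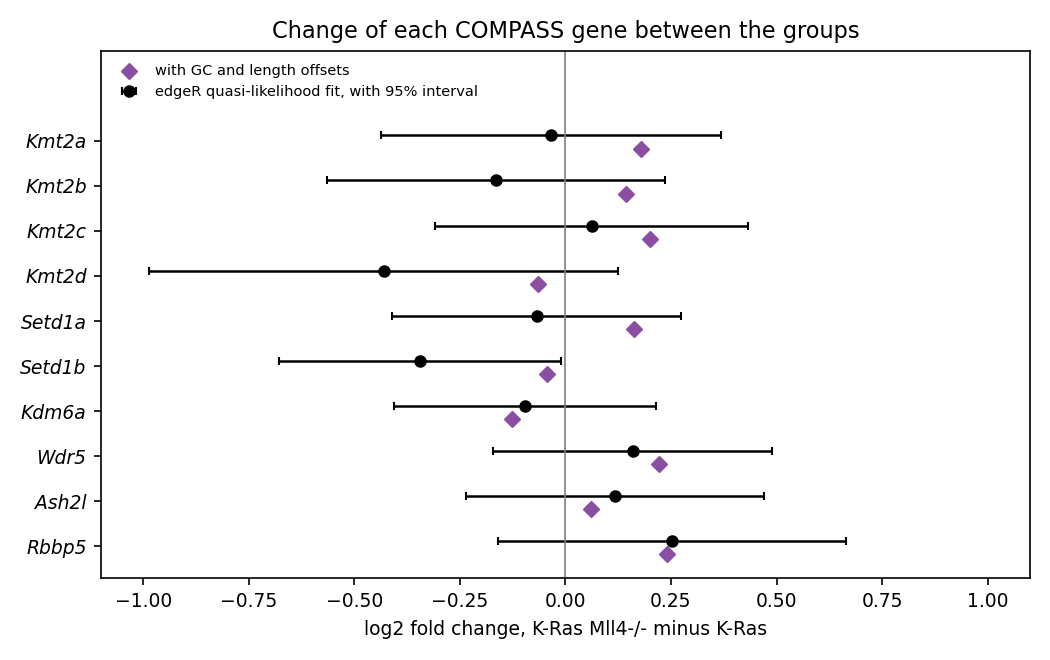
Log2 fold change of each COMPASS gene, K-Ras Mll4-/- minus K-Ras. Black points and bars are the edgeR estimate and its 95% interval for a single gene, and purple diamonds are the estimates with offsets for GC content and transcript length. All intervals except that of Setd1b (-0.68 to -0.01) include 0, and the diamond of Kmt2d lies at -0.06 against a point at -0.43.

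The log2 fold changes of the tested genes varied with GC content and transcript length. Over all tested genes, the median log2 fold change went from 0.10 in the quintile of genes with the lowest GC content to -0.14 in the quintile with the highest, and from 0.04 in the quintile with the shortest transcripts to -0.06 in the quintile with the longest. Kmt2d, Kmt2b, Setd1a and Setd1b all lay in the top quintile of both. The 356 genes of both top quintiles had a median log2 fold change of -0.30, and 78.9% of them had a negative value. The Kmt2d transcript is 19823 bases long with a GC content of 58.4%, and that of Setd1b is 8857 bases long with 59.0%. Kmt2c, with a transcript of 14967 bases, has a GC content of only 47.6% and lay in the second GC quintile. Not every member followed the medians. Setd1a, in both top quintiles, was at -0.07, and Kdm6a, in the lowest GC quintile and the top length quintile, was at -0.10.

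Offsets fitted to GC content and length in each sample raised the estimate of all 6 enzymes, by 0.14 for Kmt2c to 0.37 for Kmt2d. With them, the log2 fold change of Kmt2d was -0.06 (edgeR adjusted p = 0.819) and that of Setd1b -0.04 (edgeR adjusted p = 0.865). Those of Kmt2a, Kmt2b and Setd1a turned positive, at 0.18, 0.14 and 0.16, and that of Kmt2c went to 0.20. None of the 10 genes was called with the offsets. The core subunits moved less, to 0.22 for Wdr5, 0.06 for Ash2l and 0.24 for Rbbp5, and Kdm6a was at -0.13. The direction of 3 of the 6 methyltransferase genes therefore depended on whether the offsets were used. Such offsets take out any group difference that runs with GC content or length, whether technical or biological. Which of these it was here was not tested.

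**Figure D3:**
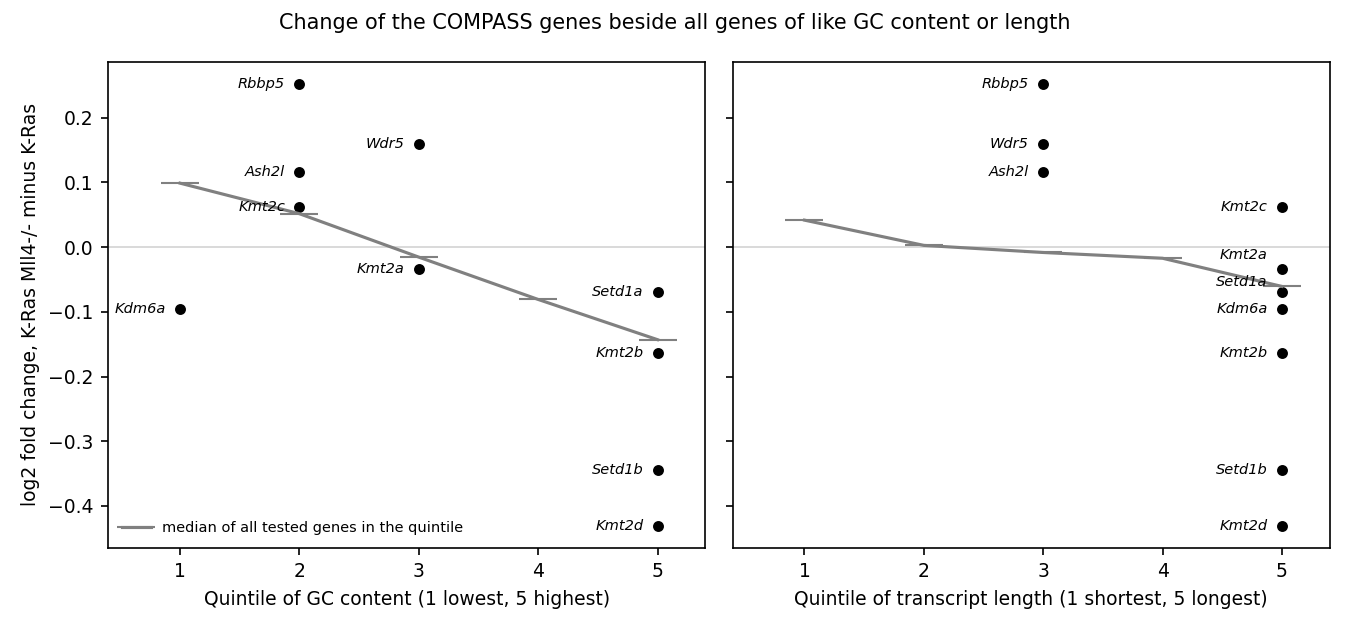
Log2 fold change of the COMPASS genes (black points, named), K-Ras Mll4-/- minus K-Ras, by quintile of GC content on the left and of transcript length on the right, with grey marks at the median of all tested genes in each quintile. The grey marks go from 0.10 to -0.14 across GC content and from 0.04 to -0.06 across length, and the lowest points, Kmt2d and Setd1b, lie in the top quintile of both.

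Ratios of reads within a sample need no scaling between samples, though they share Kmt2d as denominator. Per read of Kmt2d there were 0.650 and 0.529 reads of Kmt2c in the K-Ras samples and 0.754 and 0.891 in the K-Ras Mll4-/- samples, so both K-Ras Mll4-/- samples were higher. The mean log2 ratio differed by 0.48, beside fitted log2 fold changes of 0.06 for Kmt2c and -0.43 for Kmt2d. For 7 of the 9 other genes both K-Ras Mll4-/- samples had the higher ratio to Kmt2d, as did 51.9% of the 16000 other tested genes. The exceptions were Setd1a, at 0.155 and 0.120 against 0.151 and 0.199, and Setd1b, at 0.127 and 0.105 against 0.116 and 0.127, whose groups overlapped. With 2 samples in each group the smallest p of an exact two-sided permutation test is 0.333, which those 7 ratios reached (0.429 after Benjamini-Hochberg adjustment over 9 ratios). The ratios carry the same GC and length differences as the single genes.

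**Figure D4:**
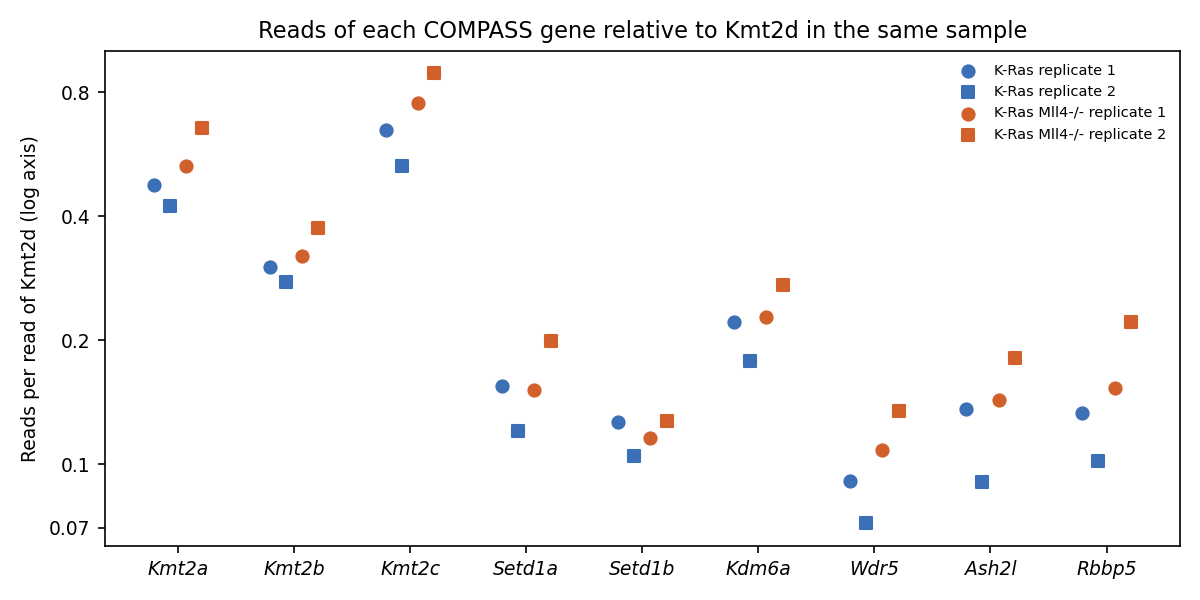
Reads of each of 9 COMPASS genes per read of Kmt2d in the same sample, on a log axis, blue for K-Ras and orange for K-Ras Mll4-/-, circles for replicate 1 and squares for replicate 2. The orange points of Kmt2c, at 0.754 and 0.891, lie above the blue ones, at 0.650 and 0.529, and only Setd1a and Setd1b have groups that overlap.

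Per kilobase of the longest transcript, Kmt2d had a mean over all samples of 20.2 CPM per kb and a range of 16.0 to 26.5. It had the highest mean of the 10 genes in the K-Ras group, at 23.2 CPM per kb, but at 17.2 CPM per kb in the K-Ras Mll4-/- group it was below Kmt2c and Rbbp5, both at 18.7 CPM per kb. Over all samples Kmt2c followed at 18.3, Rbbp5 at 17.2, Kmt2b at 14.8, Kdm6a at 14.8, Ash2l at 14.3, Wdr5 at 13.5 and Kmt2a at 12.35 CPM per kb, and the ranges of each of these neighbours overlapped. Setd1a at 9.36 and Setd1b at 5.31 CPM per kb were each below the gene before them without overlap. The order depends on the length used, since per kilobase of coding sequence Wdr5 came to 38.9 and Kmt2d to 23.9 CPM per kb. In the K-Ras samples Kmt2d made up 25.7% and 28.9% of the summed per-kilobase level of the 6 methyltransferases, and in the K-Ras Mll4-/- samples 24.3% and 21.1%. The other 5 enzymes together summed to 57.7 and 65.3 CPM per kb in K-Ras and to 57.5 and 59.8 CPM per kb in K-Ras Mll4-/- samples, and these groups overlapped. For the 4 genes of the core module, Dpy30 included, the sum was 60.0 and 61.5 CPM per kb in K-Ras and 66.9 and 75.2 CPM per kb in K-Ras Mll4-/- samples.

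The wider H3K4 pathway was described through 43 further genes in 5 lists, none of which was called by edgeR's quasi-likelihood test, by DESeq2 (which gave Smyd1 no adjusted p) or by the likelihood ratio test. At an unadjusted p under 0.05 in edgeR, 3 of the 43 were higher and 2 lower, where 11.4% and 10.4% of all tested genes were. Among 12 other subunits of these complexes, 8 had a positive and 4 a negative log2 fold change, with a median of 0.03, and the balance turned to 5 positive and 7 negative when libraries were scaled by their total or by their upper quartile. It was 10 positive with the GC and length offsets, 5 without K-Ras replicate 1 and 9 without K-Ras replicate 2. Of the subunits found only in the Kmt2c and Kmt2d complexes, Ncoa6 had means of 73.4 ± 4.18 CPM for K-Ras and 75.6 ± 6.95 CPM for K-Ras Mll4-/- samples. Paxip1 had means of 56.0 ± 10.8 and 46.5 ± 1.55 CPM, and Pagr1a, which binds Paxip1, had means of 26.7 ± 0.302 and 27.1 ± 2.19 CPM (SD, n = 2 each), with edgeR adjusted p values of 0.876, 0.417 and 0.946 in that order. The log2 fold change of Paxip1 was -0.27. Leaving out single samples moved it between -0.45 and -0.07, the latter without K-Ras replicate 2. Bod1 was the one gene of this list with an unadjusted p under 0.05, at 18.4 and 19.0 CPM in K-Ras and 23.0 and 28.5 CPM in K-Ras Mll4-/- samples (log2 fold change 0.46, SE 0.17, edgeR adjusted p = 0.226).

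The 6 demethylases that act on H3K4 had positive log2 fold changes in all cases, with TMM and with the 3 other scalings and with the GC and length offsets, and none was called. Their median was 0.31 against -0.01 over all tested genes, and 4 of the 6 were higher in both K-Ras Mll4-/- samples, a separation seen in 29.9% of all tested genes. Kdm5a, a demethylase of trimethylated H3K4, was at 159 and 154 CPM in K-Ras and at 192 and 227 CPM in K-Ras Mll4-/- samples (log2 fold change 0.42, SE 0.15, edgeR adjusted p = 0.215). Kdm1b, which removes mono- and dimethyl marks, was at 32.5 and 32.2 CPM in K-Ras and at 39.4 and 43.4 CPM in K-Ras Mll4-/- samples (log2 fold change 0.36, SE 0.13, edgeR adjusted p = 0.218). The median of the list was 0.20 without K-Ras replicate 1, when 5 of the 6 were positive, and 0.17 without K-Ras Mll4-/- replicate 2. With the offsets the values of Kdm5a and Kdm1b were 0.46 and 0.33.

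Kdm6b, the autosomal paralog of Kdm6a, was lower in both K-Ras Mll4-/- samples than in both K-Ras samples, as Kdm6a was. It was at 54.1 and 68.7 CPM in K-Ras and at 46.3 and 39.3 CPM in K-Ras Mll4-/- samples, without overlap (log2 fold change -0.52, SE 0.18, edgeR adjusted p = 0.211). Its GC content is 59.6%, and with the offsets its value was -0.23. The 7 other H3K4 methyltransferases and relatives had a median log2 fold change of 0.25 and a lowest adjusted p of 0.240 in edgeR. That median was 0.38 without K-Ras Mll4-/- replicate 1 and 0.095 without K-Ras Mll4-/- replicate 2, when 6 of the 7 were tested. The 16 enhancer coactivators, which include the acetyltransferases, bromodomain proteins and Mediator subunits that work beside H3K4 monomethylation, had a median of 0.04. Of the 16, 10 were positive with TMM, 7 with total-count or upper-quartile scaling and 13 with the GC and length offsets, where the median was 0.19. Without K-Ras replicate 1 or K-Ras Mll4-/- replicate 2, 6 of the 16 were positive and the median was -0.04 or -0.06. The coactivator with the smallest p was Med12, a subunit of the Mediator kinase module, at 137 and 143 CPM in K-Ras and 107 and 108 CPM in K-Ras Mll4-/- samples (log2 fold change -0.38, SE 0.12, edgeR adjusted p = 0.190).

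**Figure D5:**
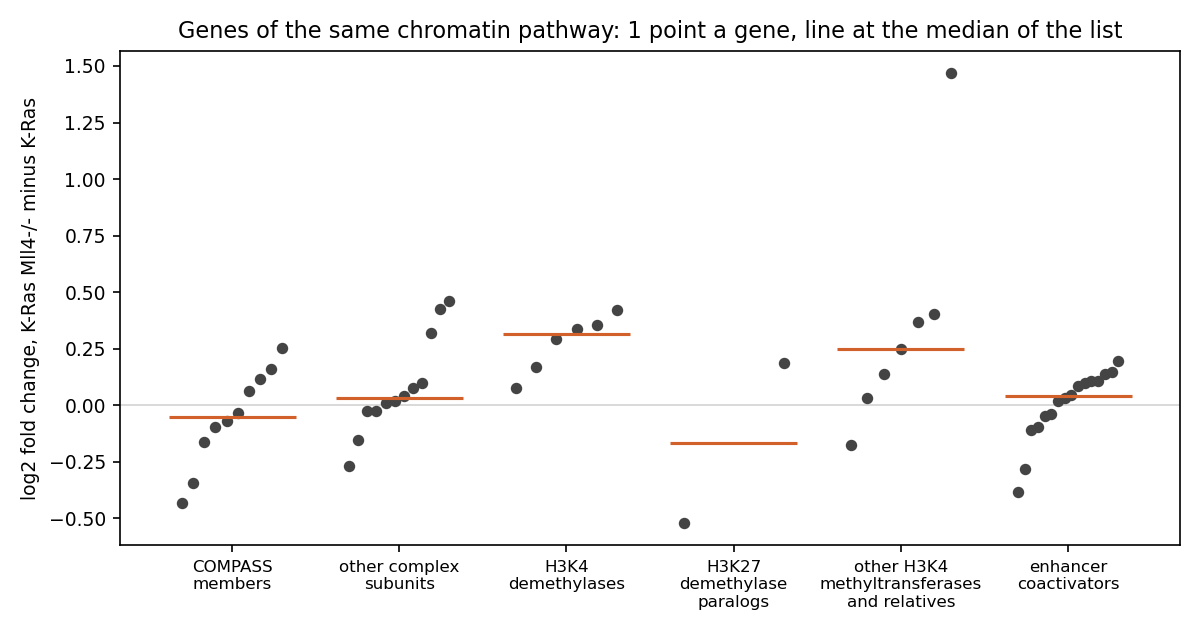
Log2 fold change, K-Ras Mll4-/- minus K-Ras, of the COMPASS members and of 5 lists of related chromatin genes, with 1 point per gene ordered by value and an orange line at the median of the list. The 6 H3K4 demethylases all lie above 0, with a median of 0.31, while the members have a median of -0.05. The point at 1.47 is Smyd1, a gene with 0.111 to 0.590 CPM.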

How the data were processed

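The authors deposited raw read counts per gene symbol, with 5 closing tallies of reads in no gene that were left out of library sizes and tests. Per the submitters' processing notes, CASAVA 1.4, STAR, HTSeq and build mm9 were used. Settings, annotation and strandedness are not given in the sources used here. Because the reference at hand is GRCm38, no gene positions are printed. Without a known strand setting, antisense reads cannot be set apart.

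Groups and replicate numbers came from the sample titles, and no batch is named. All 16001 genes passing filterByExpr were fitted together with edgeR 4.0.16 in R 4.3.3 (TMM, robust quasi-likelihood test, Benjamini-Hochberg adjustment over all of them). The standard error is the log2 fold change over the square root of F, and intervals use the moderated degrees of freedom. The steps were run on simulated counts with the same spread for all genes and with changes larger than that of any member. That run does not show whether changes of the size estimated for the members would be called. Length and GC content came from the longest GENCODE M21 transcript, known for 15863 tested genes, and offsets from mgcv 1.9.3 smooths.

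Alternatives were other scalings, filters, DESeq2 1.42.0, limma 3.58.1 (voom), the likelihood ratio test, a non-robust fit, offsets, a replicate block and leaving out each sample. All 10 members were named. Of each related list, up to 3 genes with an unadjusted p under 0.05 were named, with Kdm6b, Uty, Dpy30, Ncoa6, Paxip1 and Pagr1a added whatever their p. Members, lists and rules were chosen with earlier results of these data known.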

Additional observations from a re-analysis of the deposited data

How the results depend on the processing

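No member was called under any of the 16 alternatives, where the lowest adjusted p of a member was 0.155 (Kmt2d without K-Ras replicate 1), and no related gene was called either. Over all genes, against 6 calls, there were 44 without a count filter, 1601 with DESeq2, 1503 with the likelihood ratio test, 217 with the replicate block, 388 with that block plus offsets, and 0 with limma-voom (3228 at an unadjusted p under 0.05). Leaving out single samples gave 0 to 528, the latter without K-Ras replicate 1 (965 to 3549 at an unadjusted p under 0.05 in the 3 fits with no call), from fits in which a lone sample is assumed to vary like the other group. Of 160 member values under the alternatives, 151 kept their direction. The GC and length offsets, without and with the block, turned Kmt2a to 0.18 and 0.18, Kmt2b to 0.14 and 0.14, and Setd1a to 0.16 and 0.16. Leaving out single samples moved Kmt2a between -0.15 and 0.079 and Setd1a between -0.17 and 0.027, and the Kmt2d value between -0.62 and -0.22. Deviations from the group means correlated at 0.21 across genes between same-numbered samples. The labels do not say what these share, and the block changed no call of a member. The cause of these changes was not tested.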
